A study of Mus musculus with 6 samples.

Results

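The autophagy machinery and its cargo receptors were followed through 34 mouse genes, taken by symbol from a list of their roles. All 34 were found among the 54838 genes of the deposited table, and all 34 passed the filter on low counts that left 13629 genes for testing. The RNA came from mouse B16F10 melanoma cells treated with fenofibrate at 50 µM (n = 3 libraries) and from control cells (n = 3). Fenofibrate is a drug given to lower blood lipids, and fenofibric acid, formed from it in the body, activates PPARα. No time of treatment or vehicle is given in the labels, and no genetic change is named for either group. The design text calls the libraries biological triplicates. The labels' cell line field gives a different number for each of the 6 libraries, running on from B16F10, so that if it is meant as written, line and treatment cannot be told apart.

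Autophagy delivers cytoplasm, damaged organelles and protein aggregates to lysosomes inside a double-membraned vesicle, the autophagosome. A kinase complex built on ULK1 starts the process, a lipid kinase complex marks the membrane with phosphatidylinositol 3-phosphate, lipid is supplied through ATG9 and ATG2, and a pair of ubiquitin-like conjugation systems couples small proteins to lipid of the growing membrane. Cargo receptors such as p62 (the product of Sqstm1) bind both the cargo and these lipid-coupled proteins. TFEB and TFE3, relatives of the melanocyte factor MITF, bind and activate many lysosomal and autophagic genes.

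The fenofibrate libraries held 13540038 to 14710856 counts and the control libraries 13594939 to 14072673. A count of 0 in a library therefore allows up to 0.204 to 0.222 CPM (counts scaled to a common library size), for counting error only. The melanocyte markers Mlana, Pmel, Tyr, Dct, Tyrp1, Sox10 and Mitf were present in all libraries, with summed FPKM of 7255 to 7701 in fenofibrate cells and 6159 to 6581 in control cells. FPKM scale counts by gene length and library total. Markers of other cells were close to 0. The 6 leukocyte markers summed to 1.54 to 2.98 FPKM in fenofibrate cells and 0.925 to 1.62 in control cells, nearly all from Cd68, a gene of a lysosomal membrane protein, which was itself called higher (2.17 FPKM in fenofibrate cells and 1.18 in control cells, edgeR adjusted p = 0.0489). The groups overlapped for Cd68, at 82, 45 and 63 counts in fenofibrate libraries and 28, 47 and 26 in control libraries. Ptprc had 6 to 10 counts in fenofibrate libraries and 0 in control libraries, while Adgre1, Cd3e and Itgam had no count in either group. Fibroblast, endothelial and epithelial markers each summed to at most 0.289 FPKM in fenofibrate cells and 0.543 in control cells. The part of these markers in the results was not tested. Mitochondrially encoded genes took 6.42% to 6.57% of counts in fenofibrate cells and 5.88% to 6.66% in control cells. Control replicate 3 and fenofibrate replicate 2 stood apart from their groups for the member Uvrag.

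Transcripts for most cargo receptors were higher in fenofibrate-treated cells. Most genes of the earlier steps were not called, which also holds for all genes tested, of which 39.1% were called. Of the 34 members, 16 rose, 1 fell and 17 were not called at an adjusted p of 0.05 (edgeR quasi-likelihood test, adjusted over all genes tested). The 16 are 47.1% of the members, against 19.5% of all genes tested called higher, and 50.0% of members were called in either direction, against 39.1% of all genes. For the fall, the share is 2.94% of members against 19.5% of all genes. The members were chosen with earlier results of these data known, so these shares are a description and no test of the set. Changes were small: the rises ran from 1.15-fold to 1.83-fold, and only 2 members, Optn and Map1lc3a, changed by 1.5-fold or more, which is 5.88% of the members and 14.0% of all genes tested. The median log2 fold change of the members was 0.20, beside -0.00 for all genes. With libraries scaled by total counts instead of TMM, 2180 genes were called higher and 3280 lower, against 2664 and 2662, and 13 members rose and 1 fell. Tested with limma on log2(FPKM + 1), 2127 genes were called higher and 3189 lower.

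Groups did not overlap for 22 of the 34 members, or 64.7%, against 53.3% of all genes tested. Of these, 19 were higher with fenofibrate, where the share of all genes is 26.4%, and 3 lower, where it is 26.9%. Of the 5 receptor genes 4 rose. Among the 8 conjugation genes 3 rose, and among the 5 genes of the ULK complex 2. The PI 3-kinase complex had 1 rise among 6 genes, and the ATG9, ATG2 and WIPI genes 1 rise and 1 fall among 5. Without control replicate 1, 10 members rose and 0 fell. The calls of 9 members, Atg12, Atg14, Gabarap, Gabarapl2, Map1lc3a, Map1lc3b, Optn, Rb1cc1 and Tax1bp1, held under all 12 alternative settings. As the libraries come from bulk RNA, fewer cells of a kind and less RNA per cell cannot be told apart.

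Promoter windows were at hand for 28 of the 34 members. Each window holds 250 bases before and 50 after the transcription start in RefSeq (GRCm38.p6). Atg12, Atg16l1, Becn1, Map1lc3a, Pik3c3 and Rb1cc1 had no entry. Shown are the windows of 4 members: that of Optn, the largest rise, that of Atg14, whose window is the only one of a risen member that holds the E-box CACGTG bound by MITF, TFEB and TFE3, that of Map1lc3b, which holds the TGACNNNGC core of the antioxidant response element, and that of Atg3, which was not called and has a pair of E-boxes. Capitals mark CACGTG and TGACNNNGC.
Optn (chr2:5064068-5064367, minus strand): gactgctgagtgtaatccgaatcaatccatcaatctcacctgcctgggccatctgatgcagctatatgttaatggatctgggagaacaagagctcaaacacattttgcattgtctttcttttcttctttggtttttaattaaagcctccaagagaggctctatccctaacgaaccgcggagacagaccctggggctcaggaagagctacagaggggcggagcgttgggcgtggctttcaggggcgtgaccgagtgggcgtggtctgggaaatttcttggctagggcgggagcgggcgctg
Atg14 (chr14:47568385-47568684, minus strand): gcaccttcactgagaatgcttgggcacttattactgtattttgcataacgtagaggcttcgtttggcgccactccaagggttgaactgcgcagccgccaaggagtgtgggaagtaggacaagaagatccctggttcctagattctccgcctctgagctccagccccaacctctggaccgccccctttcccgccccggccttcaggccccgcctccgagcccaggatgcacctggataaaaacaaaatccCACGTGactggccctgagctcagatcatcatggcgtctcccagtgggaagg
Map1lc3b (chr8:121590188-121590487, plus strand): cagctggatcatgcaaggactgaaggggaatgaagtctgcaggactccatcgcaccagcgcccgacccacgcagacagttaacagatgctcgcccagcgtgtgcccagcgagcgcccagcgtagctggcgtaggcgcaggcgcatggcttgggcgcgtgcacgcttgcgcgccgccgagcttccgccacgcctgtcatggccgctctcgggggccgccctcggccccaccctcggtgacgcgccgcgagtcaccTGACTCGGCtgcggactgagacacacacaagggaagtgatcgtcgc
Atg3 (chr16:45158579-45158878, plus strand): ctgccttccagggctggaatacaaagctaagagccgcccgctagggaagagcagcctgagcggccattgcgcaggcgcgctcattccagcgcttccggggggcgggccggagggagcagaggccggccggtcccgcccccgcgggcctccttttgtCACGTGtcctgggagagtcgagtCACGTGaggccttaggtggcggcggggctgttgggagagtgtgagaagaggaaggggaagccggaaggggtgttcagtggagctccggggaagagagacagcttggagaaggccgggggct

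Searched on both strands, CACGTG occurred in 1 of 13 windows of risen members (7.69%), in 3 of 17 windows of the other members (17.6%) and in 7.15% of 32851 promoter windows of all genes. Nbr1 and Tax1bp1 have a pair of windows each, so that 30 windows stand for 28 genes. In the Atg14 window the E-box fills bases 250 to 255 counted from the 5′ end, across the start site. In the Atg3 window E-boxes fill bases 157 to 162 and 180 to 185, and the second lies within the longer TCACGTGA, which occurred in no window of a risen member and in 0.974% of all windows. The other members with CACGTG were Atg5 and Atg7, which like Atg3 were not called. The Atg7 window (chromosome 6, 114670846 to 114671145, plus strand) lies inside the gene, which begins at 114643097. The Atg14 window also lies inside its gene, which extends to 47570649 on the minus strand. The core TCATGTG of the melanocyte M-box occurred in 0 member windows, against 3.77% of all windows. TGACNNNGC occurred in 15.4% of windows of risen members (Map1lc3b and a window of Tax1bp1), 11.8% of windows of the others and 12.4% of all windows.

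The ULK complex joins the kinases ULK1 and ULK2 with the scaffold FIP200 (gene Rb1cc1) and the subunits ATG13 and ATG101. Rb1cc1 (chromosome 1, 6206197 to 6276648 on GRCm38) stood at 38.0, 37.4 and 33.96 normalised CPM in fenofibrate cells, against 28.1, 30.8 and 28.3 in control cells. Normalised CPM are CPM with library totals scaled by TMM. Every fenofibrate library lay above every control library, and the rise was 1.25-fold (log2 fold change 0.33 ± 0.08 SE, adjusted p = 0.0118). Ulk1 stood at 46.4, 45.3 and 41.5 normalised CPM in fenofibrate cells, against 37.1, 38.0 and 37.6 in control cells, a 1.18-fold rise (adjusted p = 0.0214). The Ulk1 call was lost when any of fenofibrate replicates 1 and 2 or control replicates 1, 2 and 3 was left out (adjusted p 0.0542 to 0.0682), with DESeq2 (0.0578), with total-count scaling (0.0540) and with limma on FPKM (0.0640 with 0.5 added before the log and 0.0609 with 1).

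Ulk2 gave 55.2, 49.6 and 52.6 normalised CPM in fenofibrate cells and 44.9, 44.7 and 48.4 in control cells. Its groups did not overlap, but it missed the threshold (log2 fold change 0.19 ± 0.07 SE, adjusted p = 0.0532). Atg13 was not called, with 41.8, 36.0 and 38.3 normalised CPM in fenofibrate cells, against 37.0, 34.9 and 35.7 in control cells (95% interval of the log2 fold change -0.06 to 0.28). Atg101 pointed the other way, at 28.2, 28.0 and 30.4 in fenofibrate cells and 31.1, 31.2 and 31.2 in control cells. That difference was not called (log2 fold change -0.11 ± 0.07 SE, adjusted p = 0.223), except by limma on log2(FPKM + 1) (adjusted p = 0.0448). Rb1cc1 shares 558 exonic bases with an antisense gene, 4732440D04Rik, that had 33 to 50 counts in fenofibrate libraries and 37 to 63 in control libraries.

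The class III PI 3-kinase VPS34 (gene Pik3c3) works with its adaptor VPS15 (Pik3r4) and Beclin 1 (Becn1). ATG14 directs the complex to autophagosome formation, and UVRAG takes its place in a complex of endosomes and late autophagy. Atg14 (chromosome 14, 47540893 to 47570649) was the one gene of this group called. It stood at 14.6, 13.6 and 14.2 normalised CPM in fenofibrate cells, against 10.1, 8.996 and 11.5 in control cells. The groups were separate, with a 1.38-fold rise (log2 fold change 0.47 ± 0.11 SE, adjusted p = 0.0143). By level, Atg14 was next to the lowest of the 34 genes, at 1.95 ± 0.0630 FPKM in fenofibrate cells and 1.46 ± 0.178 FPKM in control cells (mean ± SD, n = 3 each).

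The catalytic subunit Pik3c3 gave 38.4, 36.5 and 39.9 normalised CPM in fenofibrate cells and 39.4, 34.2 and 38.2 in control cells. Its partner Pik3r4 gave 44.2, 43.3 and 48.5 in fenofibrate cells and 50.6, 46.4 and 44.2 in control cells. The 95% intervals of their log2 fold changes were -0.14 to 0.21 and -0.23 to 0.12. Ambra1, whose product binds Beclin 1 and ULK1, gave 66.6, 68.9 and 68.1 in fenofibrate cells, against 61.3, 64.4 and 54.4 in control cells, and was not called although its groups were separate (adjusted p = 0.0867).

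Becn1 varied within groups, at 138, 111 and 128 normalised CPM in fenofibrate cells, against 94.2, 84.5 and 118 in control cells. Control replicate 3 reached above fenofibrate replicate 2, so that the groups overlapped, and the gene was not called (log2 fold change 0.34 ± 0.13 SE, adjusted p = 0.0693). It was called higher without control replicate 3 (0.49 on the log2 scale, adjusted p = 0.0133), without fenofibrate replicate 2 (0.43, adjusted p = 0.0477) and by DESeq2 (adjusted p = 0.0137). Of its exonic bases 43.9% overlap Cntd1 on the opposite strand, which had 8 to 17 counts in fenofibrate libraries and 8 to 14 in control libraries.

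Uvrag (chromosome 7, 98885021 to 99141141) was the least even member. It stood at 112, 43.7 and 119 normalised CPM in fenofibrate cells, against 64.6, 62.6 and 136 in control cells. Within each group the values split, with fenofibrate replicate 2 at 0.379 of the mean of the other fenofibrate libraries and control replicate 3 at 2.14 times the mean of the other controls. The fitted log2 difference was 0.06 ± 0.42 (SE), and its 95% interval of -0.92 to 1.04 allows a change of about 2-fold either way. Leaving out control replicate 3 gave 0.52, and leaving out fenofibrate replicate 3 gave -0.17, neither called. Of the nearest tested genes on either side, Thap12 was even, at 93.2, 91.6 and 89.9 normalised CPM in fenofibrate cells and 91.2, 90.9 and 92.3 in control cells, and Dgat2 had few reads, at 28, 39 and 36 counts in fenofibrate libraries and 16, 36 and 18 in control libraries. Farther along the chromosome Pgm2l1, named after its values were seen, was uneven in the same libraries, at 127, 70 and 170 counts in fenofibrate libraries and 51, 36 and 89 in control libraries. Arrb1, named likewise, was instead high in fenofibrate replicate 2, at 33, 187 and 116 counts in fenofibrate libraries and 229, 66 and 268 in control libraries. Of 8121 genes with a mean above 20 normalised CPM, 26, Uvrag among them, had control replicate 3 at 1.8 times the mean of the other controls or more. An antisense gene, Gm45187, covers 17.6% of the exonic bases of Uvrag and had 0 counts in all libraries. What sets the libraries apart for this gene was not tested.

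**Figure D1:**
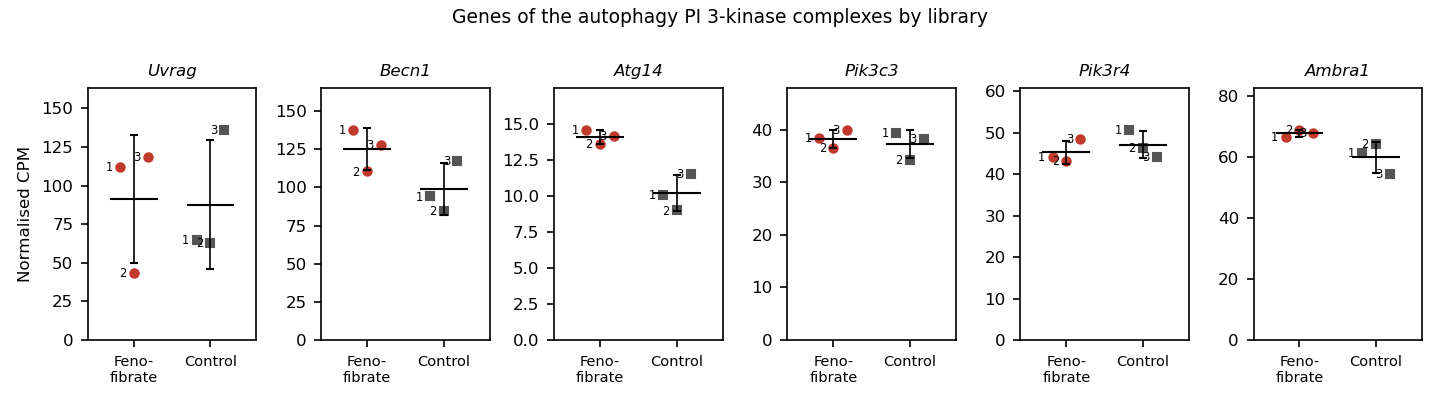
Normalised CPM of 6 genes of the autophagy PI 3-kinase complexes in each library (fenofibrate, red circles; control, grey squares; numbers give the replicate; bars, mean ± SD, n = 3). Atg14 separates the groups, while Uvrag spans 43.7 to 119 in fenofibrate cells and 62.6 to 136 in control cells.

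ATG9A is a scramblase whose vesicles seed the membrane, ATG2A and ATG2B transfer lipid from the endoplasmic reticulum, and the WIPI proteins bind phosphatidylinositol 3-phosphate. Wipi1 gave 23.7, 25.5 and 24.8 normalised CPM in fenofibrate cells, against 21.0, 19.5 and 22.0 in control cells. The groups were separate and the rise was 1.18-fold (adjusted p = 0.0419), but the call was lost without any of fenofibrate replicates 1, 2 and 3 or control replicates 1 and 2 (adjusted p 0.0570 to 0.127). DESeq2 (adjusted p = 0.145), total-count scaling (0.0911), a fit without the filter (0.0678) and limma on FPKM (0.0668 and 0.0620) lost it too. Its relative Wipi2 gave 95.8, 98.7 and 92.5 in fenofibrate cells and 93.0, 97.6 and 101 in control cells, with a 95% interval of -0.14 to 0.10 for the log2 fold change.

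Atg2b (chromosome 12, 105616136 to 105685211) was the only member that fell. It stood at 73.6, 73.5 and 78.2 normalised CPM in fenofibrate cells, against 84.7, 87.7 and 82.7 in control cells, 1.13-fold lower at a log2 fold change of -0.18 ± 0.05 (SE; adjusted p = 0.0297). All fenofibrate libraries lay below all controls. Atg2b shares 383 exonic bases with Gskip on the opposite strand, which had 283 to 364 counts in fenofibrate libraries and 247 to 307 in control libraries. Of the 50-base stretches of Atg2b, 8.23% also occur in another gene. The call was lost without fenofibrate replicate 1 or 2 or control replicate 1 or 2 (adjusted p 0.0691 to 0.0916) and with DESeq2 (0.0825). Its paralog Atg2a gave 31.2, 32.1 and 34.4 in fenofibrate cells, against 30.8, 29.2 and 29.2 in control cells, and was not called (log2 fold change 0.13 ± 0.07 SE, adjusted p = 0.174). The difference between the paralogs was not tested. Atg9a gave 50.1, 51.6 and 58.7 in fenofibrate cells and 59.0, 54.8 and 61.8 in control cells (adjusted p = 0.229). Of the Atg9a exonic bases 32.6% overlap other genes, mostly Gm29253 on the same strand, which had 93, 21 and 23 counts in fenofibrate libraries and 0, 0 and 1 in control libraries.

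ATG12, a ubiquitin-like protein, is activated by ATG7, passed on by ATG10 and joined to ATG5, and ATG16L1 brings the conjugate to the membrane. Atg12 (chromosome 18, 46730144 to 46741580) stood at 57.7, 64.2 and 62.5 normalised CPM in fenofibrate cells, against 39.8, 44.6 and 42.4 in control cells. Fenofibrate libraries were all above control libraries, by 1.45-fold (log2 fold change 0.54 ± 0.07 SE, adjusted p = 0.000841). Atg10 gave 9.66, 11.97 and 11.2 in fenofibrate cells, against 8.65, 8.09 and 7.91 in control cells, a 1.34-fold rise (adjusted p = 0.0268). Its call was lost without fenofibrate replicate 2 or 3 or any of control replicates 1, 2 and 3 (adjusted p 0.0511 to 0.0848) and with DESeq2 (0.0918).

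Atg16l1 gave 39.1, 41.6 and 37.4 normalised CPM in fenofibrate cells, against 31.9, 32.98 and 33.4 in control cells, a 1.20-fold rise (adjusted p = 0.0157). The call was lost without fenofibrate replicate 2 (adjusted p = 0.0546), without control replicate 1 (0.0585) and with limma on FPKM (0.0504 and 0.0554). Atg5, the gene of the partner of ATG12, was not called and gave 48.0, 47.5 and 45.2 in fenofibrate cells and 48.3, 43.2 and 44.8 in control cells (95% interval of the log2 fold change -0.10 to 0.20). Nor was the activating enzyme gene Atg7, at 32.4, 35.0 and 31.0 in fenofibrate cells and 35.7, 33.9 and 34.1 in control cells, with an interval of -0.24 to 0.09. The interval of Atg12, 0.38 to 0.70, does not reach those of Atg5 and Atg7. The difference between these genes was not tested.

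ATG4 proteases trim the small proteins before coupling and release them from the membrane later, and ATG3 performs the last coupling step. Atg3 had the smallest difference of all members, at 92.6, 88.8 and 102 normalised CPM in fenofibrate cells, against 94.7, 94.1 and 96.8 in control cells (log2 fold change -0.01 ± 0.06 SE, 95% interval -0.15 to 0.13). Atg4b stood at 52.1, 51.4 and 52.8 in fenofibrate cells and 54.8, 54.0 and 56.1 in control cells, separate but not called (adjusted p = 0.275). Atg4d stood at 30.2, 32.6 and 29.2 in fenofibrate cells, against 39.0, 30.5 and 37.4 in control cells, where control replicate 2 lay among the fenofibrate values. It was not called (adjusted p = 0.138), but it was called lower without control replicate 2 (log2 fold change -0.32, adjusted p = 0.0274). Kri1 overlaps 19.3% of its exonic bases on the opposite strand, with 644 to 883 counts in fenofibrate libraries and 799 to 902 in control libraries.

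The product of Gabarap is coupled to phosphatidylethanolamine on the autophagosome. Gabarap (chromosome 11, 69991143 to 69994951) stood at 261, 234 and 233 normalised CPM in fenofibrate cells, against 166, 165 and 174 in control cells. The lowest fenofibrate value was well above the highest control, with a 1.44-fold rise (log2 fold change 0.53 ± 0.05 SE, adjusted p = 0.000326). Map1lc3a (chromosome 2, 155276297 to 155278073) stood at 21.1, 22.7 and 20.4 in fenofibrate cells, against 12.6, 14.4 and 15.7 in control cells. The rise was 1.50-fold, or 0.59 ± 0.10 on the log2 scale (SE; adjusted p = 0.00343).

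Gabarapl2 gave 46.9, 39.7 and 41.2 normalised CPM in fenofibrate cells, against 34.7, 28.1 and 30.2 in control cells, a 1.37-fold rise (adjusted p = 0.00963). Map1lc3b, whose product is widely used as an autophagy marker at the protein level, gave 38.0, 38.0 and 37.9 in fenofibrate cells, against 32.9, 31.9 and 28.4 in control cells, a 1.22-fold rise (adjusted p = 0.0164). Gabarapl1 gave 128, 131 and 133 in fenofibrate cells, against 107, 117 and 116 in control cells, a 1.15-fold rise (adjusted p = 0.0161). For each of these genes the groups were separate. The Gabarapl1 call was lost without control replicate 1 (adjusted p = 0.0529) and with limma on FPKM (0.0866 and 0.0713). Processed pseudogenes share 50-base stretches with Gabarapl2 (12.2% of its stretches occur in another gene) and Map1lc3b (6.01%), so that their counts are less certain than those of Gabarap and Map1lc3a, at 0% each. On the opposite strand, 28.3% of the exonic bases of Gabarapl1 are shared with 1700101I11Rik, which had 18 to 26 counts in fenofibrate libraries and 1 to 3 in control libraries.

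Cargo receptors bind ubiquitinated or other marked cargo together with proteins of the autophagosome membrane. Optn encodes optineurin, a receptor for mitochondria, bacteria and aggregates. Optn (chromosome 2, 5020642 to 5064051) stood at 130.1, 135 and 141 normalised CPM in fenofibrate cells, against 76.9, 70.2 and 75.3 in control cells. This was the largest change of any member, a 1.83-fold rise (log2 fold change 0.87 ± 0.06 SE, 95% interval 0.74 to 0.996, adjusted p = 4.09e-05). The lower bound of its interval exceeds the estimates of the 33 other members, but differences between members were not tested.

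Sqstm1 (chromosome 11, 50199366 to 50210827), which encodes p62, had the highest level of all members in both groups. It stood at 1028, 1069.6 and 866 normalised CPM in fenofibrate cells, against 805, 776 and 780.0 in control cells. The fenofibrate libraries spread more widely than the controls but stayed above them, with a 1.25-fold rise (log2 fold change 0.33 ± 0.07 SE, adjusted p = 0.0103). The call was missed with limma on log2(FPKM + 0.5) (adjusted p = 0.0557). Mrnip overlaps 17.3% of the exonic bases of Sqstm1 on the opposite strand and had 78 to 97 counts in fenofibrate libraries and 147 to 183 in control libraries, beside 10755 or more for Sqstm1 in every library.

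Tax1bp1, a receptor for ubiquitinated cargo, gave 462, 473 and 488 normalised CPM in fenofibrate cells, against 405, 393 and 394 in control cells. It rose 1.20-fold with little spread (log2 fold change 0.26 ± 0.04 SE, adjusted p = 0.0012). Calcoco1, a receptor for endoplasmic reticulum and Golgi, gave 52.8, 45.6 and 46.5 in fenofibrate cells, against 38.1, 42.4 and 39.5 in control cells, a 1.21-fold rise (adjusted p = 0.0285). That call was lost without fenofibrate replicate 1 (adjusted p = 0.0746), control replicate 1 (0.0941) or control replicate 3 (0.0768), with total-count scaling (0.0604), without the filter (0.0571) and with limma on FPKM (0.0769 and 0.0713).

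Nbr1, whose product works beside p62 on aggregates and peroxisomes, was the receptor gene not called. It stood at 137, 168 and 178 normalised CPM in fenofibrate cells, against 165, 177 and 174 in control cells. Fenofibrate replicate 1 was low and the other libraries of both groups overlapped (log2 fold change -0.10 ± 0.09 SE, 95% interval -0.31 to 0.12). Leaving fenofibrate replicate 1 out brought the estimate to 0.0059. The interval of Nbr1 lies below those of Sqstm1 (0.16 to 0.50), Tax1bp1 (0.18 to 0.34) and Optn, and overlaps that of Calcoco1 (0.09 to 0.45). Differences between receptor genes were not tested.

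**Figure D2:**
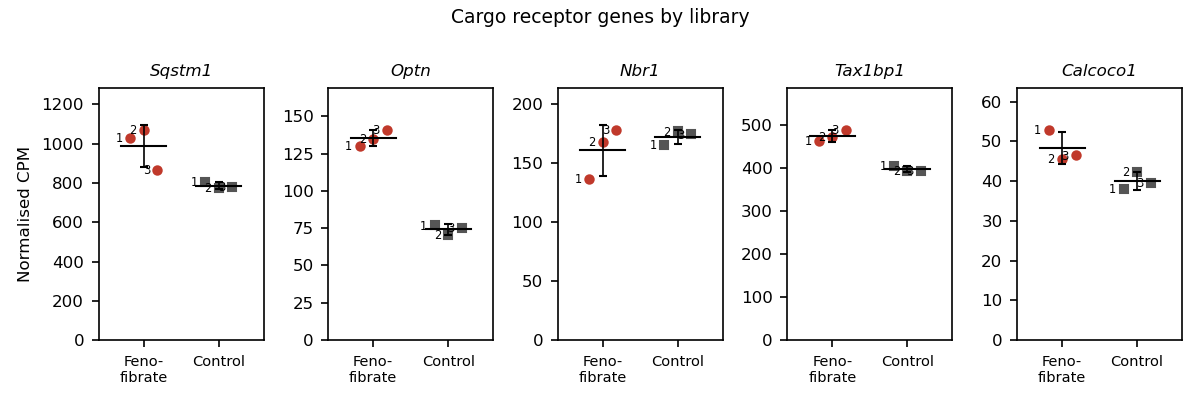
Normalised CPM of the 5 cargo receptor genes in each library (fenofibrate, red circles; control, grey squares; numbers give the replicate; bars, mean ± SD, n = 3). In 4 of the 5 panels all fenofibrate libraries lie above all controls; in the panel of Nbr1 they do not.

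For 33 of the 34 members the length behind the deposited FPKM equals the summed distinct exons within 0.1%, and over all 34 it is 1.07 to 2.14 times the merged exon length. Per length, levels of the members ran from 1.59 ± 0.0965 FPKM in fenofibrate cells and 1.31 ± 0.0698 in control cells for Rb1cc1 to 138 ± 15.2 FPKM in fenofibrate cells and 114 ± 2.53 in control cells for Sqstm1 (mean ± SD, n = 3 each). Gabarap came next to the top, at 71.4 ± 4.58 FPKM in fenofibrate cells and 51.5 ± 1.34 in control cells. Tax1bp1 and Gabarapl1 followed and were within their spread of each other in control cells, at 36.4 ± 0.713 and 36.1 ± 1.78 FPKM. By merged exon length Gabarapl1 stood above Tax1bp1. In CPM per kilobase, with library totals not scaled by TMM, they stood at 63.5 ± 1.38 and 46.6 ± 1.28 in fenofibrate cells. In control cells they stood at 57.3 ± 2.82 and 40.5 ± 0.793. Optn was eighth in control cells by FPKM, at 13.5 ± 0.634, and sixth in fenofibrate cells, at 23.7 ± 0.942. The ULK and PI 3-kinase genes all lay below 14 FPKM in both groups.

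Beyond the members, 78 other genes of the pathway were matched in the table and 73 tested. Of these 25 rose, 10 fell and 38 were not called, with a median log2 fold change of 0.14. Over all genes tested 19.5% were called higher and 19.5% lower, and the counts for the shorter lists that follow are to be read against those shares. Among the other core genes 3 of 11 rose and 1 fell. Vmp1, a lipid scramblase of the endoplasmic reticulum, gave 119, 121 and 118 normalised CPM in fenofibrate cells, against 76.5, 72.9 and 85.7 in control cells, a 1.52-fold rise (adjusted p = 0.000388). Nrbf2, a subunit of the ATG14 complex, rose 1.45-fold (adjusted p = 0.00213), with 65.8% of its 50-base stretches also in another gene. Tecpr1 rose 1.09-fold (adjusted p = 0.0143), a call lost without control replicate 1 (0.0566), with total-count scaling (0.102) and with limma on FPKM (0.275 and 0.238). The low-level Atg16l2, a paralog of Atg16l1, was 1.70-fold lower (adjusted p = 0.0014), at 9.74, 9.49 and 11.2 normalised CPM in fenofibrate cells, against 15.9, 17.2 and 18.7 in control cells.

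Of 9 mitophagy genes tested 3 rose and 1 fell. Bnip3, a receptor in the outer mitochondrial membrane, gave 52.9, 48.9 and 51.7 normalised CPM in fenofibrate cells, against 21.4, 19.7 and 21.3 in control cells, a 2.46-fold rise (adjusted p = 2.15e-05), with 47.2% of its 50-base stretches shared with another gene. Its relative Bnip3l rose 1.26-fold, with 20.8% of its 50-base stretches shared with another gene. Pink1, the kinase that marks damaged mitochondria, rose 1.54-fold (27.0, 27.5 and 24.0 in fenofibrate cells, against 17.5, 15.2 and 18.3 in control cells). Phb2, a prohibitin of the inner membrane, was 1.21-fold lower. Of 9 tested genes for selective autophagy of endoplasmic reticulum and other cargo, 4 rose and 2, Irgm1 and Wdfy3, fell. The largest were Ccpg1, a receptor of the endoplasmic reticulum, at 1.71-fold, with 71.8% of its exonic bases overlapped by other genes, and Tollip, an adaptor for ubiquitinated cargo, at 1.51-fold (153, 154 and 141 in fenofibrate cells, against 101, 95.4 and 101 in control cells). Ccpg1 had 350, 463 and 512 counts in fenofibrate libraries and 261, 251 and 264 in control libraries. Gm44503, which overlaps Ccpg1 on the same strand, had 209, 153 and 148 in fenofibrate libraries and 101, 98 and 141 in control libraries. Pigb, on the opposite strand, had 223 to 232 and 199 to 231. Retreg1, which encodes the receptor FAM134B, rose 1.30-fold, and Irgm1, an interferon-induced GTPase gene, was 1.50-fold lower. Calcoco2 had 0 counts in all 6 libraries.

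Fusion of autophagosomes with lysosomes needs SNARE proteins, RAB7 and the HOPS tethering complex. Of 12 genes tested 5 rose and 1 fell. The HOPS genes Vps18, Vps41 and Vps16 rose 1.35-fold, 1.23-fold and 1.22-fold (adjusted p 0.00277 to 0.00507). Of the other HOPS genes, named after their values were seen, Vps11 rose 1.20-fold (adjusted p = 0.0384). Vps39 (1.08-fold higher, adjusted p = 0.083) and Vps33a were not called. Vps33a pointed downward, 1.15-fold lower with its groups separate (adjusted p = 0.0707). Plekhm1, an adaptor of RAB7 and HOPS, was the one that fell, at 107, 105 and 112 normalised CPM in fenofibrate cells, against 179, 179 and 184 in control cells, 1.68-fold lower (adjusted p = 2.55e-05). Rab7, named here after its values were seen, was counted unevenly, at 278, 278 and 266 in fenofibrate cells and 233, 234 and 542 in control cells, where control replicate 3 stood alone (adjusted p = 0.477).

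Upstream, AMPK promotes and mTORC1 restrains the start of autophagy. Among 25 such regulators there were 8 rises, 4 falls and 13 genes without a call. Of the sestrin genes, whose products are stress-induced inhibitors of mTORC1 signalling, Sesn3 rose and Sesn2 and Sesn1 fell. Sesn3 gave 127, 126 and 124 normalised CPM in fenofibrate cells, against 59.1, 53.3 and 56.7 in control cells, 2.23-fold higher (adjusted p = 1.32e-05). Sesn2 gave 37.1, 35.5 and 38.6 in fenofibrate cells, against 65.8, 65.3 and 65.1 in control cells, 1.76-fold lower (adjusted p = 5.59e-05). Sesn1, named after its values were seen and not followed under the alternative settings, was 1.26-fold lower (adjusted p = 0.0446). Its values were 17.2, 19.97 and 17.5 in fenofibrate cells, against 23.99, 20.08 and 24.7 in control cells. Ddit4, another inhibitor of mTORC1, was 2.21-fold lower, at 18.9, 16.6 and 20.6 in fenofibrate cells, against 44.1, 37.2 and 42.9 in control cells. Prkab2, an AMPK subunit gene, rose 1.70-fold (adjusted p = 0.0349), a call lost without fenofibrate replicate 2 (adjusted p = 0.0683) or control replicate 1, 2 or 3 (0.0528 to 0.106), without the filter (0.0755) and with limma on FPKM (0.0797 and 0.0818). Other AMPK subunit genes, named after their values were seen and not followed under the alternative settings, went both ways. Prkag2 rose 1.66-fold (adjusted p = 0.000217) and Prkaa1 was 1.10-fold lower (adjusted p = 0.0368), while Prkaa2, Prkab1 and Prkag1 were not called.

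Of 7 tested transcription factors of autophagy and lysosomal genes 2 rose and 1 fell. Mitf, the melanocyte member of the TFE family, stood at 1452, 1485 and 1404 normalised CPM in fenofibrate cells, against 666, 643 and 601 in control cells, a 2.27-fold rise (adjusted p = 5.43e-06). Its relative Tfeb pointed downward, at 11.1, 12.2 and 9.51 in fenofibrate cells, against 12.8, 15.7 and 13.6 in control cells. Tfeb was not called (log2 fold change -0.36 ± 0.13 SE, adjusted p = 0.0595), but was called lower with total-count scaling (0.0367) and with limma on FPKM (0.0403 and 0.0416). Tfe3 stood at 58.7, 61.1 and 51.2 in fenofibrate cells and 54.2, 58.5 and 61.9 in control cells, with a 95% interval of -0.23 to 0.17. Of the forkhead factors, Foxo3 rose 1.29-fold and Foxo4 was 1.52-fold lower (adjusted p = 0.000655 and 0.000562).

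**Figure D3:**
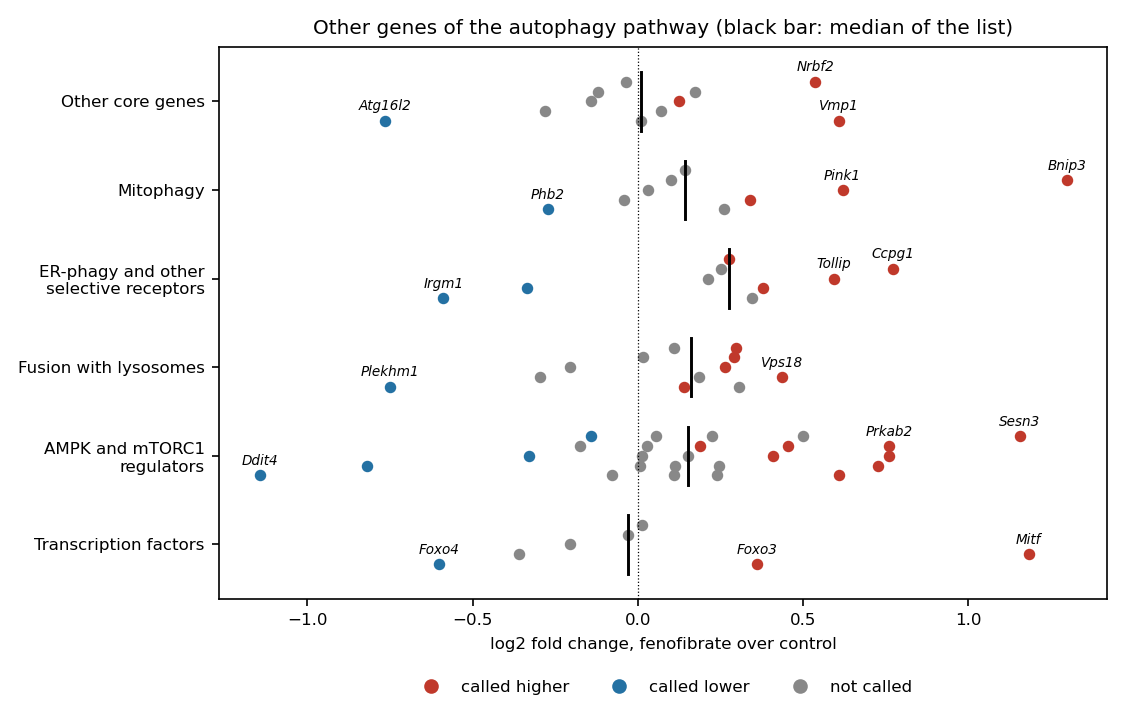
Log2 fold change of fenofibrate over control for the 73 tested genes of 6 other autophagy lists, 1 point per gene (red, called higher; blue, called lower; grey, not called); black bars give list medians and the outermost called genes are named. Bnip3 at 1.30, Mitf at 1.18 and Sesn3 at 1.16 lie farthest right, and Ddit4 at -1.14 farthest left.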

How the data were processed

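The authors' deposited table gives raw counts per gene and FPKM for each library. Per the submitters' processing notes, the tools were StringTie 1.3.0 and HISAT2 2.0.4, beside a build named as GRCm39, in roles not stated; the counting tool and strand setting are not given in the sources used here, so a gene's counts can hold reads of an overlapping gene. All 34 members have the same start and end in GENCODE M21, so coordinates are given as GRCm38. Counts were tested in R 4.3.3 with edgeR 4.0.16 (filterByExpr, TMM, glmQLFit and glmQLFTest, no covariate), with Benjamini-Hochberg adjustment over 13629 genes and a threshold of 0.05; the script was tested on simulated data. Each SE was taken from the log2 fold change and its F statistic. Overlaps and shared stretches of 50 bases come from GENCODE M21. Alternatives were DESeq2 1.42.0, total-count scaling, no filter, a block on the replicate number, limma 3.58.1 on log2(FPKM + 0.5) and log2(FPKM + 1) of the deposited FPKM, and leaving out each library.

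Groups come from the sample titles. Members and lists were chosen with earlier results of these data known. Values by library are given for the up to 3 called members of each role with the largest change, the one with the smallest, those whose call changes when a library is left out, and for most others too. By rule, each of the other lists gave at most 4 called genes, those that changed most, and also Tfeb, Tfe3 and Mitf. Further genes of those lists, Wdfy3 among them, were named after their values were seen. One listed symbol, Wipi3, had no match. Grouped results for some of the members are not reported here.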

Additional observations from a re-analysis of the deposited data

How the results depend on the processing

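Of the 17 calls among the members, 9 held under all 12 alternatives and none changed sign under any. Ambra1, Atg13, Atg2a, Atg4b, Atg7, Atg9a, Pik3r4 and Ulk2 kept sign and stayed uncalled under all. Leaving out each library gave 10 to 14 members higher, 0 to 1 lower, a member median of 0.18 to 0.23, 2112 to 2412 genes higher and 2136 to 2370 lower over all genes, and 20 to 26 other pathway genes higher and 8 to 10 lower. Other counts that moved by over 1.5 times were the members lower, at 0 with DESeq2, 0 with the replicate block and 2 with limma on log2(FPKM + 1), and the members higher, at 10 with limma on log2(FPKM + 0.5); the cause was not tested. The member median was 0.14 with total-count scaling, 0.14 with limma on log2(FPKM + 0.5) and 0.13 with limma on log2(FPKM + 1). The sign turned for uncalled genes near 0. With total-count scaling, Pik3c3 gave -0.017 and Atg5 -0.0090. With limma on log2(FPKM + 0.5), Pik3c3 gave -0.015, Uvrag -0.020 and Atg5 -0.0076, and with limma on log2(FPKM + 1) -0.014, -0.015 and -0.0074 in that order. With a library left out, Pik3c3 gave -0.022 to 0.077, Uvrag -0.17 to 0.52, Atg3 -0.070 to 0.030, Nbr1 -0.18 to 0.0059, Wipi2 -0.055 to 0.0046 and Tfe3 -0.084 to 0.041.

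With the replicate number as a block, 13 members rose and 0 fell, 12 of them called without the block too. The calls of Wipi1, Atg2b, Ulk1, Atg10, Calcoco1, Tecpr1 and Prkab2 were lost and that of Becn1 was gained. Deviations of same-numbered libraries from their group means were not correlated over genes (r = 0.03, 0.01 and -0.00). That gives no sign that the numbers pair the samples, but a correlation over all genes could miss a shift shared by some.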

Other observations

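Among the regulators of mTORC1, genes of the folliculin complex, which acts on the Rag GTPases at the lysosome, were higher with fenofibrate. They were chosen after their values were seen and were not refitted under the alternative settings. Flcn stood at 124, 113 and 94.99 normalised CPM in fenofibrate cells, against 57.3, 56.8 and 82.0 in control cells, a 1.70-fold rise (adjusted p = 0.00758), with control replicate 3 above the other controls. Its partner gene Fnip1 stood at 189, 188 and 189 in fenofibrate cells, against 119, 135 and 117 in control cells, 1.53-fold higher (adjusted p = 0.000252). Fnip2 rose 1.37-fold (adjusted p = 0.000286). Rragd, the gene of a Rag GTPase, was not called (adjusted p = 0.257), at 86.5, 89.7 and 90.1 in fenofibrate cells and 79.8, 79.2 and 29.2 in control cells, where control replicate 3 stood apart.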
